A study of Oreochromis niloticus with 21 samples.

Results

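Brain-restricted genes are those whose RNA is abundant in brain and scarce in every other organ sampled. In Oreochromis niloticus, the Nile tilapia, 127 of 17098 genes met a rule of this kind. The level of a gene in a tissue was log2 of its mean RPKM over the 3 temperatures plus 1. RPKM is a read number divided by the length of the gene and by a measure of the size of the library. A gene was taken when its brain level was at least 4, or about 16-fold, above the highest of the other 6 tissue levels and its mean brain RPKM was at least 5. The same rule turned on the other tissues gave 244 genes in liver, 133 in muscle, 61 in kidney, 53 in gill, 28 in heart and 3 in spleen. These counts do not compare the tissues on a like scale. Summed RPKM ran from 92010.5 in brain at 10 °C to 1.03e+06 in liver at 28 °C.

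The fish were 6 months old and spent 12 h at 28, 18 or 10 °C before the brain was taken, as were spleen, liver, kidney, heart, gill and muscle. Each tissue gave 1 library at each temperature, 21 libraries in all, from total RNA. The labels name no strain, no genetic change and no other treatment, and they do not say how many fish stand behind a library. There is therefore no measure of the spread between fish for any value below.

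The brain is built of neurons and glia, and much of what sets it apart at the RNA level belongs to them. Neurons carry transcripts for synaptic vesicles, neurotransmitter receptors, ion channels and a specialised cytoskeleton, while oligodendrocytes make myelin proteins and astroglia clear transmitters and supply metabolites. Neuropeptide precursors and neural transcription factors complete the usual picture. Fish are ectotherms, so the brain is exposed to the temperature of the water. The files identify genes only by Ensembl ID, and 0 of the 17098 IDs could be paired with a symbol. Synaptic, myelin, glial and other marker lists could not be read for that reason, and the label of the brain libraries could not be checked against its defining genes. In bulk tissue, fewer cells of a type and less RNA per cell cannot be told apart.

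A pair of libraries stood apart from the others of their tissue. Brain at 10 °C held 331738 reads assigned to genes, against 505455 at 28 °C and 920886 at 18 °C. One gene, ENSONIG00000020875, which is not among the 127 and was singled out after its values were seen, took 21.5% of the reads of brain at 10 °C. Its RPKM in brain was 249.7 at 28 °C, 72.5 at 18 °C and 13832 at 10 °C. A large share for 1 gene was not particular to that library. The leading gene took 55.9% of the reads of muscle at 10 °C, 31.6% of kidney at 10 °C and 30.6% of muscle at 28 °C, and less than 21.5% elsewhere. ENSONIG00000020875 also led liver at 10 °C, at 9.15%, and kidney at 28 °C, at 3.35%. Spleen at 18 °C held low levels of most of the brain-restricted genes, as described below. The whole series ranged from 331738 to 3664592 reads per library.

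The rule narrowed the genes in steps. A mean brain RPKM of at least 5 was reached by 3618 genes, and 1478 of them were higher in brain than in any other tissue. The gap to the next tissue was at least 1 on the log2 scale for 923 genes, at least 2 for 643, at least 3 for 316 and at least 4 for 127. The lowest mean brain RPKM among the 127 was 16.1. No tissue level can be negative, so a gap of 4 by itself requires a mean brain RPKM above 5. The minimum of 5 could therefore remove no gene. Just inside the gap of 4 were ENSONIG00000000748, with a gap of 4.01, and ENSONIG00000014957, with 4.02. Just outside it were ENSONIG00000011791 and ENSONIG00000003986, both with a gap of 3.98. Their mean brain RPKM values were 16.1 and 40.4 inside and 16.6 and 39.6 outside, so the limit falls within a continuous range of genes.

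The brain-restricted genes spanned a wide range of levels in brain. Their mean brain RPKM ran from 16.1 to 2971, with a median of 35.7 and an interquartile range of 24.5 to 65.5. Of the 127, 13 had a mean of at least 100, 43 of at least 50 and 118 of at least 20. The gap to the next tissue had a median of 4.62 and reached 7.67, with 40 genes at 5 or more and 10 at 6 or more. These values chose the genes and are given as a description.

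One gene dominated the group. ENSONIG00000004362, the most abundant and also the one with the widest gap of 7.67, had an RPKM of 3021 at 28 °C, 3771 at 18 °C and 2121 at 10 °C. Reads behind these values numbered 6346, 13588 and 2531 over an implied length of 973 bp. It alone made up 28.6, 32.0 and 35.0% of the summed RPKM of the 127 genes at 28, 18 and 10 °C. Outside brain its RPKM had a median of 0.201 over 18 libraries and was above 0 in 9 of them. The highest of these was 40.3, in spleen at 18 °C. The second most abundant, ENSONIG00000001276, had an RPKM of 373.9, 510.3 and 188.3 at 28, 18 and 10 °C and a gap of 7.15. It too was highest outside brain in spleen at 18 °C, at 3.74. The 10 most abundant genes held 44.1%, 49.1% and 53.1% of the group's summed RPKM at 28, 18 and 10 °C.

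**Figure D1:**
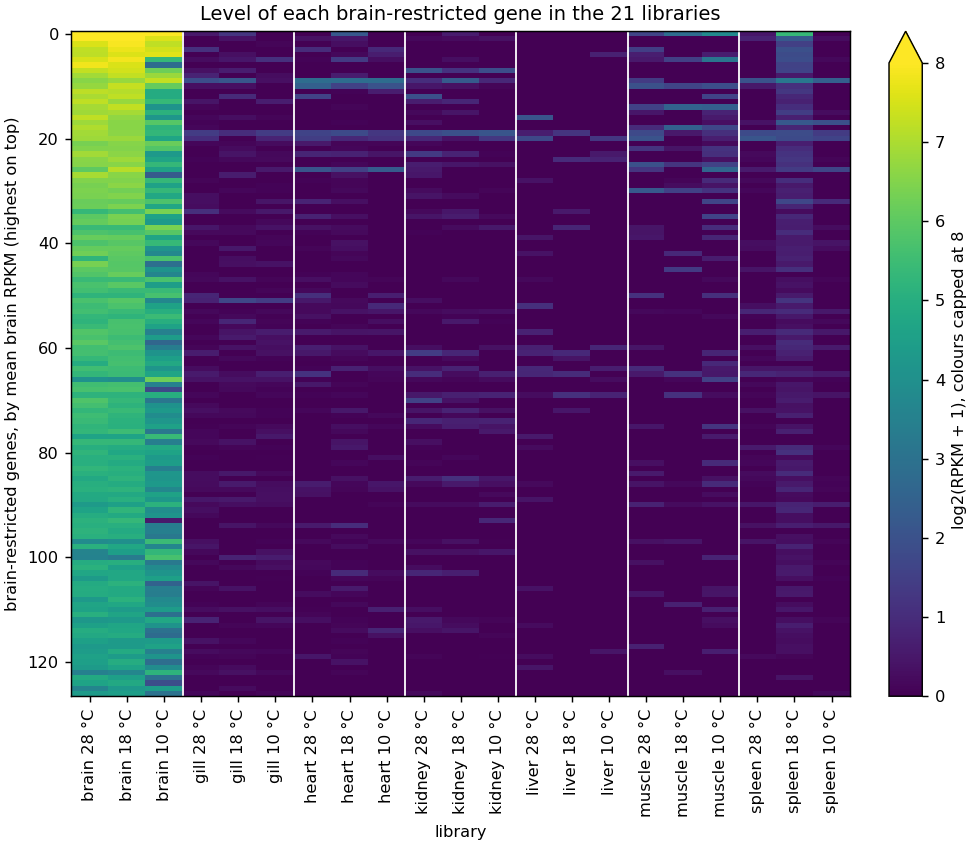
Level of each of the 127 brain-restricted genes (rows, highest mean brain RPKM on top) in the 21 libraries (columns, grouped by tissue), coloured by log2(RPKM + 1) up to a cap of 8. The 3 brain columns are bright, the 10 °C brain column is dimmer and less even, and the spleen column at 18 °C shows a faint copy of the brain order.

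In sum, the 127 genes reached an RPKM of 10547 in brain at 28 °C, 11776 at 18 °C and 6055 at 10 °C. As a share of all reads assigned to genes, they took 8.97% at 28 °C (95% exact binomial interval 8.89 to 9.05), 9.09% at 18 °C (9.03 to 9.15) and 4.63% at 10 °C (4.56 to 4.70). These intervals cover counting error only. The summed RPKM at 10 °C was thus below those of both other brain libraries. It was also below them without the most abundant gene of the group, at 3934 against 7526 at 28 °C and 8006 at 18 °C. The totals behind the shares include ENSONIG00000020875, which is outside the group. That gene took 21.5% of the reads at 10 °C, against 0.448% at 28 °C and 0.122% at 18 °C. The group's share was not recomputed without it.

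Outside brain the group was near the limit of detection. The lowest of the 3 brain libraries lay above the highest of the 18 other libraries for 126 of the 127 genes. That separation follows from the rule and carries no test. The exception was ENSONIG00000013159, with an RPKM of 34.5 at 28 °C, 39.1 at 18 °C and 0.467, or 1 read, at 10 °C, below its 0.853 in kidney at 10 °C. For 83 genes no other library reached an RPKM of 1, and for 3 genes all 18 were at 0. Only 4 genes reached an RPKM of 5 in any other library. A gene was above 0 in a median of 6 of the 18 libraries. Liver held the least, with 96 of the 127 genes at 0 in all 3 of its libraries.

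**Figure D2:**
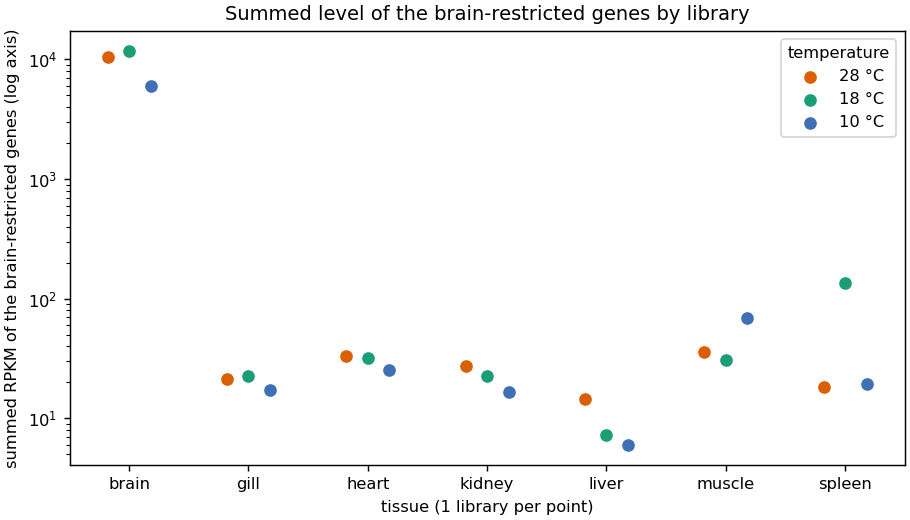
Summed RPKM of the 127 brain-restricted genes (log axis) in each of the 21 libraries, by tissue, with 1 point per library coloured by temperature. The 3 brain points lie between 6055 and 11776, while the 18 others lie between 5.99 and 134.2, the highest being spleen at 18 °C.

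The tissue next to brain was most often spleen. It held the highest level outside brain for 47 genes, followed by muscle for 24, gill for 23, kidney for 14, heart for 14 and liver for 5. By single library, spleen at 18 °C was the highest outside brain for 51 genes. When the rule was applied without that library, an alternative chosen after seeing the data, 132 genes met it and all 127 were among them. The next tissue was then gill for 41 of the 132, muscle for 31, heart for 26, kidney for 16, spleen for 11 and liver for 7.

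Spleen at 18 °C carried a low level of nearly the whole group. Of the 127 genes, 111 were above 0 there, against 37 in spleen at 28 °C and 32 at 10 °C. Their reads numbered 626 at 18 °C, or 0.0734% of the library (95% exact interval 0.0678 to 0.0794), against 115 at 28 °C and 154 at 10 °C. Summed RPKM was 134.2, 18.5 and 19.5 at 18, 28 and 10 °C. In the 17 libraries outside brain other than spleen at 18 °C, between 9 and 73 of the genes were above 0 and their share of reads was 0.00245 to 0.0184%. An RPKM of at least 1 was reached by 27 of the genes in spleen at 18 °C, by 3 at 28 °C and by 5 at 10 °C.

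The levels in spleen at 18 °C followed those in brain. A gene's RPKM there had a median of 0.974% of its RPKM in brain at 18 °C, with an interquartile range of 0.623 to 1.53%. Across the 127 genes, Spearman's rho between the libraries was 0.668 and Pearson's r on the log2 scale 0.781. In the 17 libraries outside brain other than spleen at 18 °C, the rho with brain at the same temperature was at most 0.416, in muscle at 10 °C. Genes are not independent replicates, and sparser libraries hold more ties at 0. The genes restricted to muscle, liver, kidney, heart and gill by the same rule were in no case higher in sum in spleen at 18 °C than in both other spleen libraries. The summed RPKM of the liver-restricted genes was 362 there, against 970 at 28 °C and 546 at 10 °C. That of the muscle-restricted genes was 211, against 296 and 193. For the kidney-restricted genes it was 7.31, against 15.97 and 4.38, for the heart-restricted genes 63.7, against 81.5 and 314, and for the gill-restricted genes 2.24, against 5.59 and 2.23. The source of the brain-restricted reads in spleen at 18 °C was not tested.

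**Figure D3:**
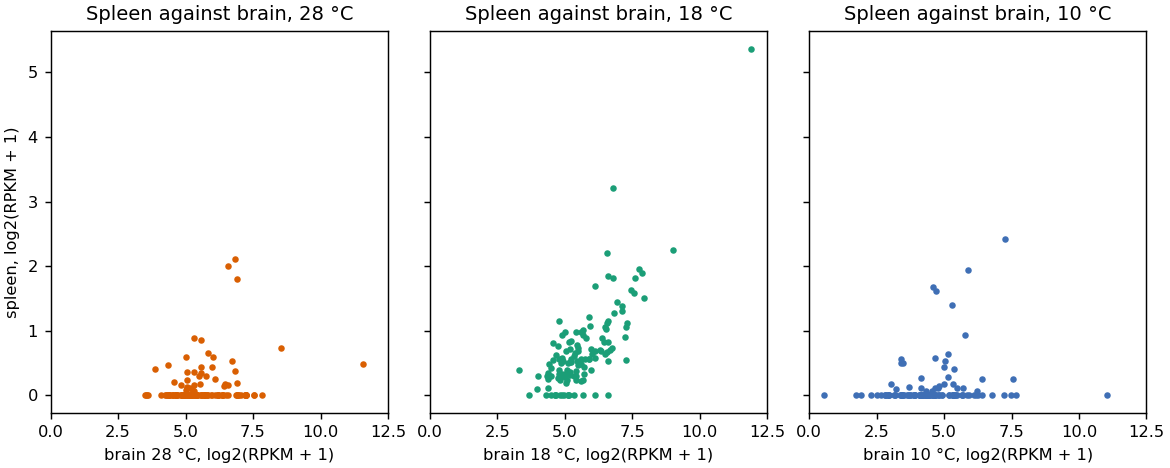
Level of each of the 127 brain-restricted genes in spleen (vertical axis) against brain (horizontal axis), both as log2(RPKM + 1), at 28, 18 and 10 °C. At 18 °C, 111 genes lie above 0 in spleen and rise with their brain level, while at 28 and 10 °C most lie at 0.

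By summed RPKM, muscle at 10 °C came next, at 68.4 from 149 reads on 49 of the genes. That sum was 1.13% of the group's sum in brain at 10 °C, and the sum in spleen at 18 °C was 1.14% of that in brain at 18 °C. By share of reads the 2 were unlike, at 0.00823% in muscle at 10 °C and 0.0734% in spleen at 18 °C. The muscle share was below that of every gill, heart, kidney and spleen library. The library size behind RPKM was 0.566 times the recovered reads in muscle at 10 °C. It was 3.70 times in brain at 10 °C and 2.84 times in spleen at 18 °C.

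The study set colder water against 28 °C. Between 18 and 28 °C the brain-restricted genes were nearly level. Only 1 of the 127 differed by 2-fold or more, higher at 18 °C, and 0 were lower by that much. Over all 4225 genes with an RPKM of at least 5 in either brain library, 2.98% were higher and 1.49% lower, and over 661 genes with a mean brain RPKM of at least 20 the shares were 1.82% and 1.06%. The median log2 difference was 0.03 in the group, or −0.09 with median-of-ratios scaling, and 0.08 over all those genes. The median size of the difference without its sign was 0.193 in the group and 0.284 over all, but 0.192 against 0.206 above that mean. The 1 gene was ENSONIG00000009812, with an RPKM of 63.1 at 28 °C, 139 at 18 °C and 23.3 at 10 °C. Next was ENSONIG00000015223, at 10.9, 21.3 and 38.1. The lowest at 18 against 28 °C were ENSONIG00000006878, at 150.8, 100.5 and 17.6, and ENSONIG00000017474, at 33.6, 22.5 and 13.7.

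At 10 °C the group was lower. Against 28 °C, 65 of the 127 genes were lower by 2-fold or more on the log2(RPKM + 1) scale, 6 were higher and 56 were within 2-fold. That is 51.2% lower and 4.72% higher, against a background of 33.2% lower and 20.4% higher over 4829 genes with an RPKM of at least 5 in either library. The median log2 difference was −1.12 in the group and −0.37 over all those genes. These are fold counts between 2 single libraries, which allow no test of that pair alone. Median RPKM of the group was 41.5, 41.8 and 20.8 at 28, 18 and 10 °C.

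The background depended on the level of the genes. Among 664 genes with a mean brain RPKM of at least 20, 60.5% were lower at 10 than at 28 °C and 6.17% were higher. Of the 118 brain-restricted genes above that mean, 61, or 51.7%, were lower and 5, or 4.24%, were higher. The medians were −1.13 in these 118 and −1.40 over the 664. At like abundance, then, these brain-restricted genes were lower at 10 °C no more often than the rest. The rule itself used the brain level at 10 °C, however, and could leave out genes that fell there. With the 10 °C libraries of all tissues left out, 139 genes met it, of which 116 were among the reported ones. The sets were also not matched for length, with medians of 2406 bp in the 118 and 1877.5 bp in the 664. Whether brain-restricted genes fall less often than others therefore cannot be decided from these shares. Within the group, the 32 genes with the highest mean RPKM had a median of −1.50 and the 32 with the lowest −0.84.

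**Figure D4:**
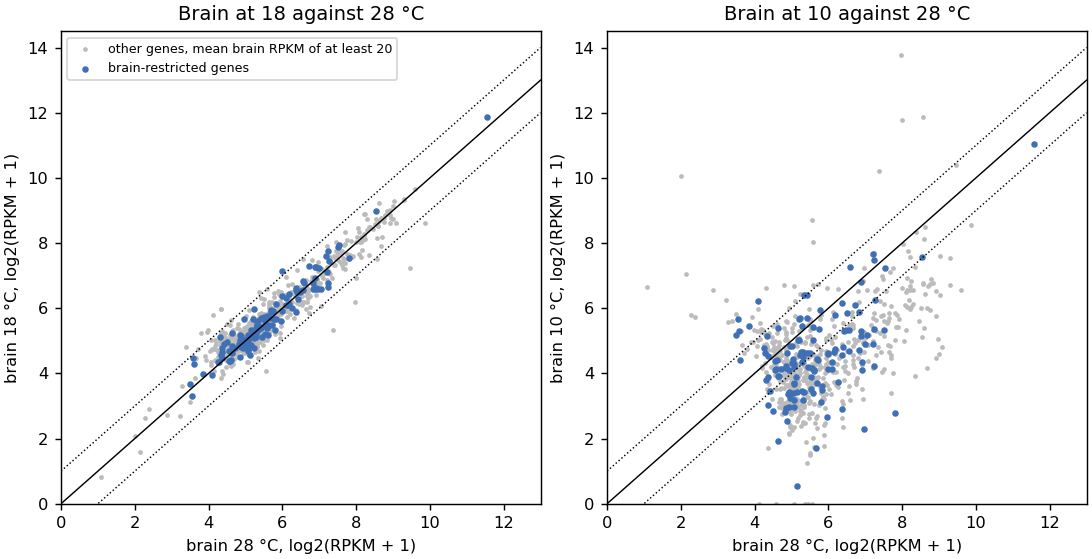
Brain at 18 °C (left) and at 10 °C (right) against brain at 28 °C, as log2(RPKM + 1), for the brain-restricted genes (blue) and the other genes with a mean brain RPKM of at least 20 (grey). The solid line marks equal levels and the dotted lines a difference of 1; at 18 °C 1 brain-restricted gene lies outside the dotted lines, at 10 °C 65 lie below and 6 above.

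Against 18 °C, 72 of the 127 genes were lower at 10 °C by 2-fold or more and 5 were higher, with a median of −1.17. The background was 34.4% lower and 16.7% higher over 4925 genes, with a median of −0.46. Among genes with a mean of at least 20, 67 of the 118 were lower and 4 higher, against 62.7% and 4.97% of 664. The comparisons of 10 °C with 28 and with 18 °C share the 10 °C library. Of the 65 genes lower than at 28 °C, 62 were also 2-fold lower than at 18 °C, and of the 6 higher ones 4 were also higher. Brain at 10 °C was the lowest of the 3 libraries for 103 of the 127 genes and the highest for 18. Over the 3618 genes with a mean brain RPKM of at least 5, it was the lowest for 62.6% and the highest for 28.9%. That background again holds genes of lower level. Of the 664 genes with a mean of at least 20, 547 were lower at 10 than at 28 °C by any amount, and 571 lower than at 18 °C. Among the 118 brain-restricted genes above that mean, 99 were lower in each pair.

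The order of the genes shifted at 10 °C as well. Spearman's rho across the 127 genes was 0.945 for the libraries at 28 and 18 °C, but 0.324 when brain at 28 °C was set beside brain at 10 °C and 0.359 when brain at 18 °C was. These describe the libraries and are across genes. They were not computed over other genes, so they do not set the group apart. Among genes with a mean brain RPKM of at least 20, the log2 differences of 10 against 28 °C had an SD over genes of 1.27 in the 118 brain-restricted genes. In the 546 others it was 1.57. Counting error is larger at 10 °C, where a gene of the group had a median of 65 reads against 223 at 28 °C and 397 at 18 °C, and where 7 genes had fewer than 10 reads.

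The 65 genes that were 2-fold lower had a median RPKM of 54.3 at 28 °C and 13.7 at 10 °C. The 2 lowest on the log2(RPKM + 1) scale ended at very few reads. ENSONIG00000021057, of 411 bp, had an RPKM of 224 at 28 °C, 187 at 18 °C and 5.95 at 10 °C, from 199, 284 and 3 reads. Its ratio of 10 to 28 °C was 0.0265, with a 95% exact interval of 0.00543 to 0.0787. ENSONIG00000015235, of 838 bp, had an RPKM of 123, 95.05 and 3.89, from 223, 295 and 4 reads. In both, the 28 and 18 °C libraries were close and the 10 °C library was far below. By the ratio itself ENSONIG00000013159 was lower still, at 0.0135 from its 1 read.

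The 6 genes that were 2-fold higher had a median RPKM of 12.2 at 28 °C and 46.8 at 10 °C. ENSONIG00000004229, of 5739 bp, had an RPKM of 15.98 at 28 °C, 14.6 at 18 °C and 74.3 at 10 °C, from 198, 310 and 523 reads. Its ratio of 10 to 28 °C was 4.65, with an exact interval of 3.94 to 5.50. ENSONIG00000016962, of 1296 bp, had an RPKM of 10.7, 8.96 and 50.3, from 30, 43 and 80 reads. Again the 28 and 18 °C libraries were close to each other. The rule favoured such genes through their 10 °C level. When the 10 °C libraries of all tissues were left out of the rule, 1 of the 6 met it, against 65 of the 65 lower genes and 50 of the 56 within 2-fold.

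Gene length moved with the difference. The lengths implied by the RPKM values had a median of 1993 bp in the 65 lower genes, 2925 bp in those within 2-fold and 3284.5 bp in the 6 higher ones. Among genes with a mean brain RPKM of at least 20, split into 4 equal groups by length, the median log2 difference of 10 against 28 °C in brain-restricted genes was −0.80, −1.60, −1.51 and −0.68 from shortest to longest. In the other genes it was −1.91, −1.70, −1.36 and −0.61. These groups held 16, 29, 32 and 41 brain-restricted genes, so the shortest rests on few. Across genes, Spearman's rho of length with the difference was 0.272 in the group and 0.355 in the others. With the differences corrected for length by a smooth curve over all genes, 79 of the 127 genes were 2-fold lower and 9 higher, against 35.3% and 16% of all 4829 genes. The median was then −1.17 in the group and −0.52 over all, against −1.12 and −0.37 without the correction. These 4829 genes were not matched to the group for level, and no corrected values were computed for genes with a mean of at least 20. Without the correction, 60.5% of the 664 genes above that mean were lower, against 51.7% of the 118 brain-restricted ones. The correction puts back the median of the curve, so it cannot remove a shift shared by all lengths. The part of length in the group's lower level at 10 °C was not tested.

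**Figure D5:**
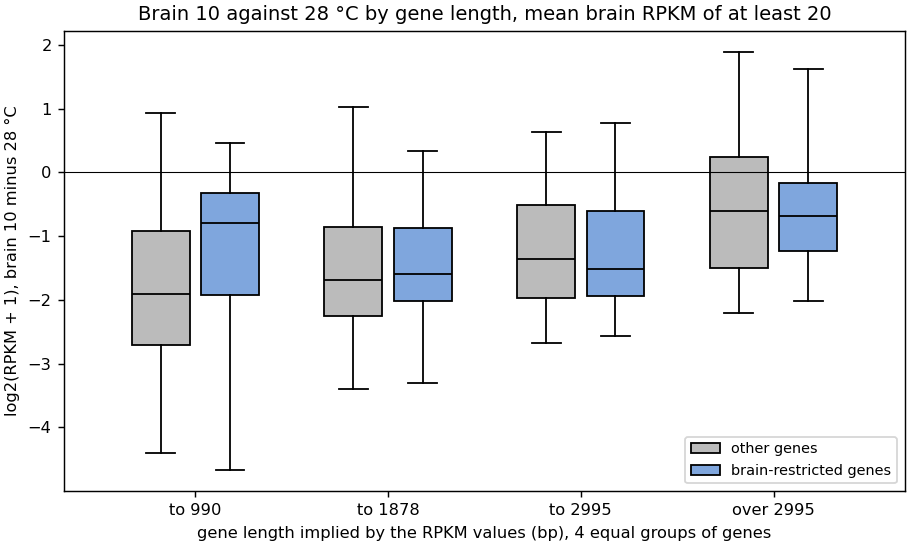
Log2(RPKM + 1) at 10 minus 28 °C in brain, in 4 equal groups by gene length in bp, for genes with a mean brain RPKM of at least 20; boxes span the quartiles with the median as a line, and whiskers the 5th to 95th percentile of genes. In the longest group the medians are −0.68 for brain-restricted genes (blue) and −0.61 for the others (grey), and in the shortest −0.80 and −1.91.

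Genes restricted to other tissues did not share a single pattern in their own organ. At 10 against 28 °C the liver-restricted genes had a median log2 difference of −1.26 in liver, with 54.5% lower by 2-fold, against −0.71 and 44.6% over all genes measured there. The median was 0.15 for muscle-restricted genes in muscle, 0.26 for gill, −0.28 for kidney and 0.08 for heart. Over all genes measured there it was 0.002 in muscle, −0.04 in gill, −0.05 in kidney and −0.15 in heart. The 3 spleen-restricted genes had a median of −1.78 in spleen, against 0.10 over all genes there. These differences between tissues were not tested. The backgrounds were not matched for level, which changed the comparison in brain as given above.

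A straight line over temperature was fitted to the 3 brain libraries with limma. The spread is the departure from the line, pooled over genes of like mean level, and not the spread between fish. Each SE below is therefore the value for genes of that level and not the gene's own. The fit called 4 of the 127 genes at a Benjamini-Hochberg adjusted p under 0.05, all lower in the cold. The background was 2.27% lower and 1.11% higher over 12210 genes. The fitted differences from 28 to 10 °C in log2(RPKM + 1) were −4.39 (SE 0.92, adjusted p = 0.000465) for ENSONIG00000013159 and −3.79 (SE 1.04, adjusted p = 0.0172) for ENSONIG00000000312. ENSONIG00000015235, at −4.50 (SE 1.25, adjusted p = 0.0178 by limma), and ENSONIG00000021057, at −4.83 (SE 1.46, adjusted p = 0.0357 by limma), completed the set. All 4 genes rested on at most 10 reads at 10 °C, and a fit to the recovered reads (voom) kept 3 of them, giving ENSONIG00000013159 an adjusted p of 0.114. On simulated data with straight-line changes, 112 of 214 calls of this fit over all genes were false. Among genes with a mean of at least 50 simulated reads, 3 of 67 were false. The 4 genes belong to that class by their mean, with at least 130 reads at 28 °C and 253 at 18 °C. In the simulation, however, most genes were unchanged. In the real libraries 33.2% of 4829 genes were 2-fold lower at 10 than at 28 °C and 20.4% were higher. The simulated rate of false calls therefore need not hold for the 4 genes. Each call also rests on few reads in a single library at 10 °C and carries little weight. The median fitted difference was −1.08 in the group and −0.18 over all genes tested. Those 12210 genes include many of lower level than the group. Over the 3618 genes with a mean brain RPKM of at least 5 the median was −0.48, and it was not computed for a mean of at least 20.

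The 3 levels did not lie on a line, since 28 and 18 °C were close and 10 °C lay apart. A fit of 10 °C against 28 and 18 °C together, in which the spread is the difference between the 28 and 18 °C libraries, called 70 of the 127 genes lower and 6 higher. Over all 12210 genes it called 17.2% lower and 7.9% higher. Among the genes with a mean brain RPKM of at least 20, it called 65 of 118 lower and 5 higher, against 62.8% and 5.27% of 664. These calls come from the same 3 libraries as the 2-fold counts and add no independent evidence to them. The spread in this fit was moderated over genes of like level, so it is not each gene's own difference between 28 and 18 °C. Those 2 libraries are also different temperatures and not replicates. Each fit sets a single library at 10 °C against the others, so whether the difference belongs to temperature or to that library cannot be told apart.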

How the data were processed

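The authors deposited 1 RPKM value per gene for each of 21 libraries, per the file headers. RNA was prepared with the TruSeq kit, per the labels' protocols. The submitters' processing notes name HTSeq, TopHat and Bowtie. For the genome build, annotation and versions: not given in the sources used here. Gene IDs matched no entry of the RefSeq table provided, so the marker lists planned as symbols could not be read.

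RPKM values are whole reads divided by length and by a constant of each library. Solving for these gave whole reads for 17082 genes, within 1e-06 in 100% of values, and no solution for 16; on simulated data 99.9% of 2996 genes were right. The constants were 0.566 to 4.27 times what the recovered reads would give, a difference the sources do not explain, so levels in different libraries carry that scaling. Intervals cover counting error only.

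The members and lists were chosen with earlier results of these data known. Differences are on log2(RPKM + 1), which understates the change of low genes. The minimum mean brain RPKM of 20 for genes of like abundance was added after seeing the data. The slope was fitted in R 4.3.3 by limma 3.58.1 over genes with an RPKM of at least 1 in a brain library. The variance followed a trend on the mean, with 1 residual degree of freedom per gene. The prior degrees of freedom were infinite, so the SEs came from that trend alone. P-values were two-sided and adjusted by Benjamini and Hochberg's method. In a simulation of 12210 genes with 50 changed at each fold size, the slope fit recovered 4% of genes changed 2-fold, 22% at 4-fold, 80% at 8-fold and 98% at 16-fold. Named genes are the 2 highest by level and gap, those beside the threshold and the 2 highest and 2 lowest per comparison with a mean brain RPKM of at least 20. ENSONIG00000000312, ENSONIG00000013159 and ENSONIG00000020875 were named after their values were seen where they fall outside this. Alternatives covered pseudocount, filter, scaling, gap, voom, a fit to all libraries and a length correction. For the number of genes, each temperature, each other tissue and 2 single libraries were left out, and for the slope each brain library in the fit to all libraries.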

Additional observations from a re-analysis of the deposited data

How the results depend on the processing

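No paired analysis was possible because each tissue and temperature has 1 library and the labels carry no replicate numbers. The number of brain-restricted genes, 127, turned on the rule itself: it was 440 with a pseudocount of 0.1 and 14 with 5, 316 with a gap of 3 and 40 with a gap of 5, and 31 when the lowest brain library had to lie 4 above the highest other library. Other settings gave 116 to 142. Leaving out a whole temperature or a whole other tissue gave 120 to 139, leaving out spleen at 18 °C alone 132 and brain at 10 °C alone 142. The count of genes called by the brain slope, 413 (136 higher and 277 lower in the cold), was 144 with a pseudocount of 5 (92 higher, 52 lower), 220 with 0.1 (32 and 188), 98 with a mean RPKM of at least 5 (20 and 78), 115 with voom (87 and 28) and 3060 when 10 °C was set against 28 and 18 °C together. The direction most calls took thus turned with a pseudocount of 5, with voom and in the fit to all 21 libraries, which called 337 (195 and 142). From that 337, leaving out 1 brain library gave 78 to 879, with 78 (59 and 19) without brain at 10 °C, 778 without 28 °C and 879 without 18 °C. The count of brain-restricted genes called, 4, was 0 with a pseudocount of 5 (9 at an unadjusted limma p under 0.05), 7 with median-of-ratios scaling, 14 in the fit to 21 libraries and 76 with 10 °C set against the rest. From that 14, leaving out 1 brain library gave 1 to 55, the 1 being a higher gene without brain at 10 °C, with 51 without 28 °C and 55 without 18 °C. The cause was not tested. The 2-fold counts, for which no library could be left out, kept their direction at 10 °C. Of the 127 genes, 69 to 88 differed from 28 °C, and of the 118 with a mean of at least 20, 66 did. The medians were −0.99 to −1.17. The median of 18 against 28 °C ran from −0.09 to 0.04 and changed sign with scaling. Scaling moved the all-gene median of 18 against 28 °C by −0.12 and of 10 against 18 °C by 0.22. Depth at 10 °C limits single genes.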
